A study of Mus musculus with 6 samples.

Results

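Rab GTPases outside melanosome transport were examined in high-pigmented and low-pigmented cells of a mouse melanoma line. The count table names 52 genes by the symbol Rab, a number and at most 1 further letter. *Rab27a*, *Rab32* and *Rab38*, which serve melanosome formation and transport, were set apart, which left 49 of 18324 gene rows. The rule used the symbol only and no measured value. Symbols with other endings, pseudogenes and effectors with longer names are not among the 49. *Rab1* is listed under its older symbol and is *Rab1a* in RefSeq.

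The cells were B16-F10, a pigmented mouse melanoma line that derives from C57BL/6 mice, kept in culture without any treatment. High-pigmented cells (HPC) and low-pigmented cells (LPC) were sorted from the same line by the light scatter of their melanin, and the sort gate is the labelled difference between the groups. Each group had 3 libraries. Their titles share a suffix that forms 3 pairs of 1 HPC and 1 LPC library, called pair 1 (16-9-15), pair 2 (18-8-14) and pair 3 (1-9-14) here. The labels do not say what the suffix marks, nor whether replicates came from separate cultures, so p-values measure the spread between these libraries, which may be technical. All cells come from 1 established line, and no unsorted cells or normal melanocytes were analysed here. Reads came from near the 3′ end of polyadenylated transcripts (QuantSeq forward kit), so a count does not grow with transcript length, and levels are given as CPM (counts per megaread of TMM-scaled library size).

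Rab proteins are small GTPases that mark membranes. An exchange factor loads a Rab with GTP on its own compartment, the loaded form recruits effectors that tether, move or fuse vesicles, and a GTPase-activating protein ends the cycle. Different Rabs mark the endoplasmic reticulum and Golgi, the plasma membrane route, early, recycling and late endosomes, and lysosomes. Pigment cells build the melanosome from endosomal membranes, and cargo such as tyrosinase reaches it through Golgi and endosomal carriers, which is why the general Rabs are of interest beside those dedicated to melanosomes.

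Counts on genes ranged from 3819605 to 7311131 per library. The libraries of pair 2 stood apart: a single row, RP23-81C12.3, took 53.9% of the HPC and 27.1% of the LPC gene counts there, against 3.54% to 5.03% in the other 4 libraries. The 49 Rab rows held 3992 and 6522 counts in the HPC and LPC libraries of pair 2, and 13917 to 26873 counts elsewhere. Of the 49 rows, 10 and 6 had a count of 0 in pair 2, and 3 or 4 in each other library. A row at 0 could hold up to 1.75 CPM in the HPC and 0.858 CPM in the LPC library of pair 2, and up to 0.315 to 0.496 CPM elsewhere, by a limit of 3 counts that covers counting error only. All 7 melanocyte lineage markers (*Sox10*, *Mitf*, *Pmel*, *Mlana*, *Dct*, *Tyr* and *Tyrp1*) were detected in every library, at a summed level of 12354, 4443 and 20733 CPM in HPC and 10621, 6189 and 17282 CPM in LPC of pairs 1, 2 and 3. Of 12 markers of leukocytes, endothelium, epithelium and fibroblasts, 4 had a row, and together they reached 4 to 67 counts, the most (39.0 CPM) in the HPC library of pair 2. Results are therefore given for all 6 libraries and for pairs 1 and 3 alone, and the part of these differences between libraries in the Rab values was not tested.

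Summed over the 49 genes, Rab transcripts made up 2334, 2323 and 2930 CPM in the HPC libraries of pairs 1, 2 and 3 and 2300, 1864 and 2821 CPM in the LPC libraries. HPC was above LPC in each pair, and the groups overlapped. In pair 1 the sums differed by less than *Rab5b* alone did (92.4 CPM in HPC and 41.5 CPM in LPC). In pair 2 the direction depended on the scaling. As a share of all gene counts, without TMM scaling, the Rabs made up 0.105% in HPC and 0.136% in LPC there. That share was 0.307% and 0.305% in pair 1 and 0.381% and 0.368% in pair 3. In RNA from a sorted population, a higher level in each cell and a larger share of cells that express a gene cannot be told apart. Between genes, levels ran from no count in 5 libraries (*Rab26* and *Rab33a*) to 418 CPM in 1 library (*Rab10*). The most abundant were *Rab10*, *Rab14*, *Rab1*, *Rab7*, *Rab6a* and *Rab2a*, which serve surface delivery, Golgi to endosome traffic, transport out of the endoplasmic reticulum, late endosomes, Golgi traffic and the early secretory route.

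**Figure D1:**
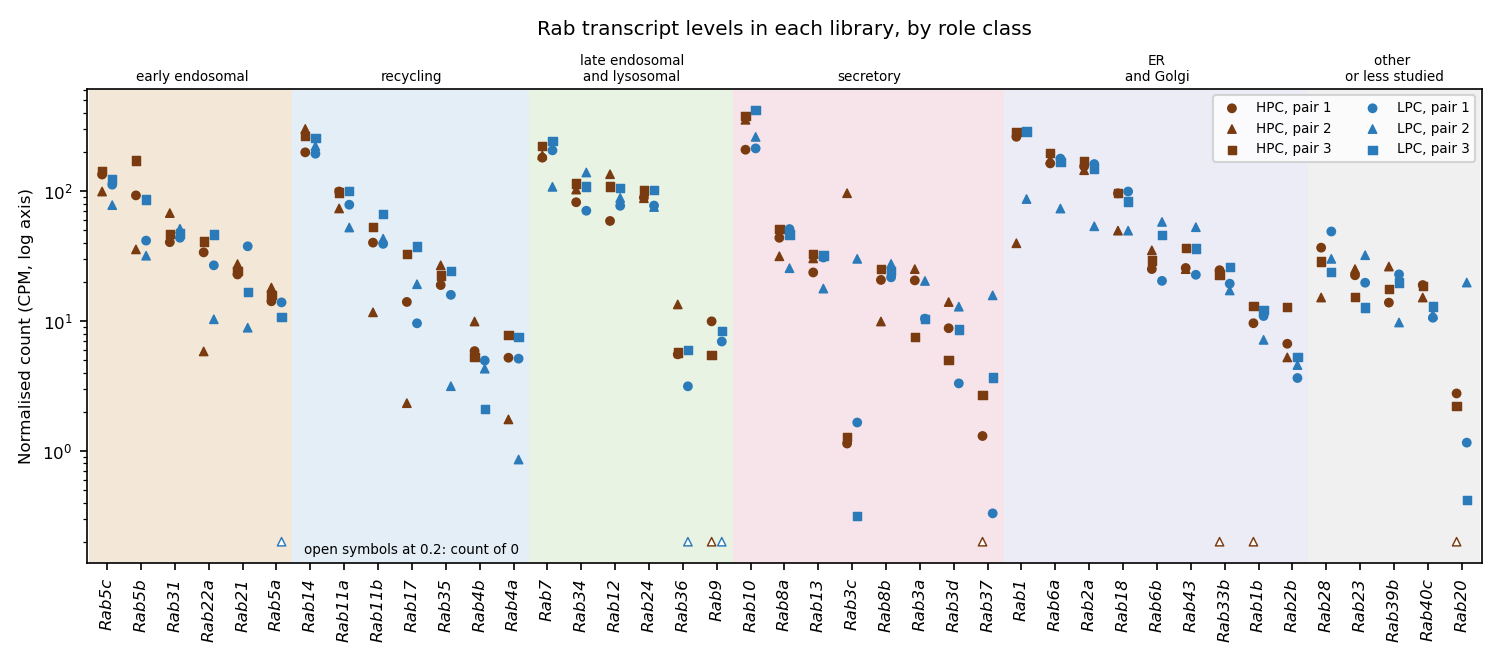
Normalised count (CPM, log axis) of the 41 Rab genes that passed the low-count filter, 1 symbol per library, brown for HPC and blue for LPC, with the pair given by the shape and role classes by the shading; open symbols at the bottom are counts of 0. *Rab10* and *Rab14* led the secretory and recycling classes, brown and blue symbols overlapped for most genes, and the triangles of pair 2 lay apart from the others for genes such as *Rab1*, *Rab3c* and *Rab20*.

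No Rab gene was called as different between HPC and LPC when all 6 libraries were compared without the pairs. SEs of the log2 fold changes ran from 0.35 (*Rab24*) to 1.92 (*Rab3c*), so changes could have been missed. Of the 41 genes that passed the low-count filter, edgeR's quasi-likelihood fit called 0 at a Benjamini-Hochberg adjusted p under 0.05 over 11324 genes, and the background was 0% (0 of 11324). At an unadjusted p under 0.05 there were 0 Rab genes and 38 of all genes, 15 higher and 23 lower in HPC. DESeq2 and limma-voom also called 0 genes. HPC was higher in 27 and lower in 14 of the 41 Rab genes, with a median log2 fold change of 0.12, beside 5326 higher, 5998 lower and a median of -0.04 over all genes. The other 8 of the 49 rows (*Rab3b*, *Rab9b*, *Rab15*, *Rab26*, *Rab27b*, *Rab30*, *Rab33a* and *Rab44*) were below the filter.

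Pairs 1 and 3, fitted with a term for each pair (the pair as a block), gave a different count. There *Rab5b* rose in HPC and was the 1 Rab gene of 42 tested that edgeR called at an adjusted p under 0.05, where the background was 1.3% of genes (155 of 11906, 111 higher and 44 lower). DESeq2 on the same 4 libraries, with the block, also called *Rab5b* alone among the Rabs, at a background of 1.03% (123 genes). Limma-voom with sample weights and the block, on all 6 libraries, called *Rab5b* as the 1 Rab gene too, at a background of 0.3% (34 of 11324 genes). At an unadjusted p under 0.05 edgeR had 3 Rab genes higher in HPC (*Rab5b*, *Rab2b* and *Rab40c*) and 0 lower, where 6.08% of all genes were higher and 6.06% lower by that measure. The median over the 42 Rab genes was 0.05, with 25 higher and 17 lower, beside 0.00 over all genes.

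**Figure D2:**
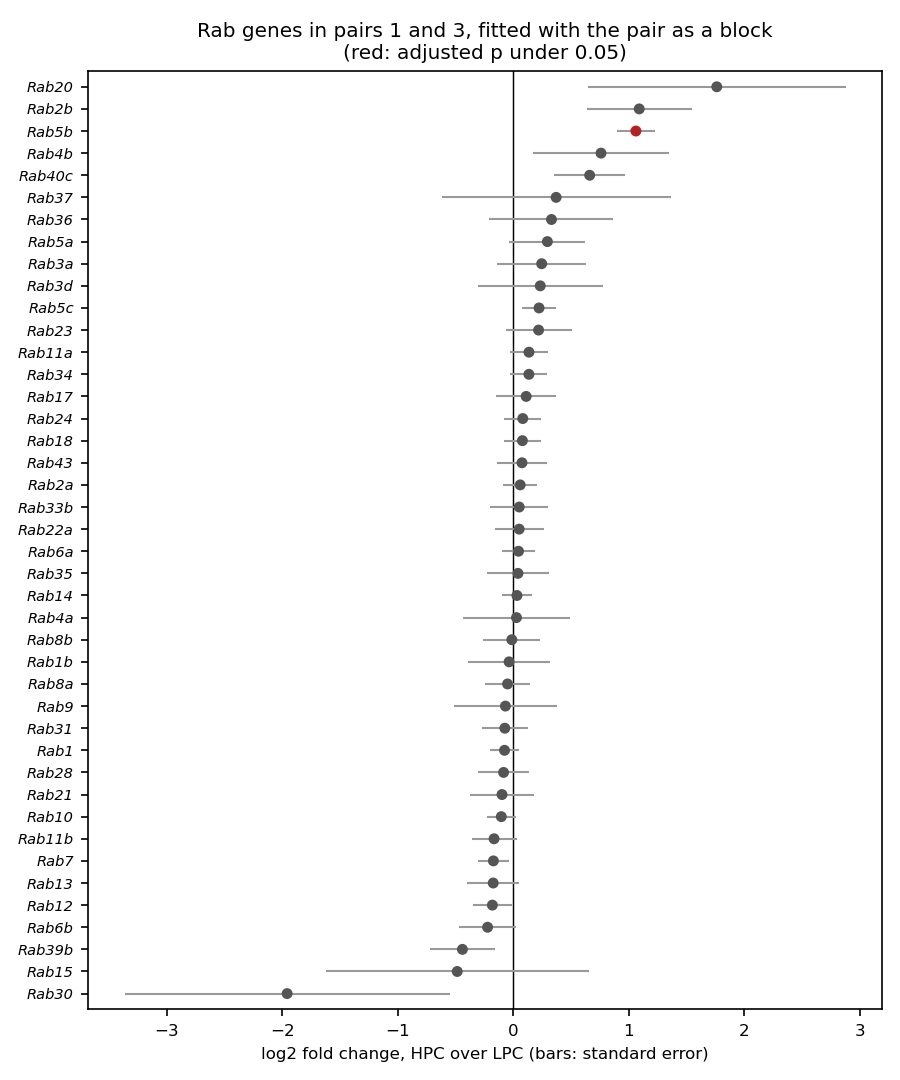
Log2 fold change of HPC over LPC for the 42 Rab genes tested in pairs 1 and 3 with the pair as a block, with bars for the standard error; red marks an adjusted p under 0.05. *Rab5b* at 1.06 is the 1 red point, the abundant genes sit between -0.18 and 0.22, and the widest bars belong to *Rab30*, *Rab15* and *Rab20*, which had few counts.

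Early endosomal Rabs direct the fusion of incoming endocytic vesicles. *Rab5a*, *Rab5b* and *Rab5c* encode close paralogs of the GTPase that defines this compartment, *Rab21* acts in integrin uptake, and *Rab22a* and *Rab31* act between early endosomes and the trans-Golgi network. *Rab5b* was measured at 92.4, 35.5 and 172 CPM in HPC and 41.5, 31.7 and 85.8 CPM in LPC of pairs 1, 2 and 3. HPC was the higher library in every pair, but the groups overlapped, because the HPC library of pair 2 lay below the LPC libraries of pairs 1 and 3. Pair 3 was also above pair 1 in both groups, so the means of 99.8 ± 68.3 CPM in HPC and 53.0 ± 28.8 CPM in LPC (SD, n = 3) differed by less than the SD in HPC.

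Within pairs the log2 difference of *Rab5b* was 1.15, 0.16 and 1.00. The log2 fold change was 0.92 (SE 0.63, adjusted p = 0.9996, edgeR) over all 6 libraries without the block, and 0.79 (SE 0.28, adjusted p = 0.927, edgeR) with it. In pairs 1 and 3 with the block it was 1.06 (SE 0.16, adjusted p = 0.000811, edgeR), with a 95% interval of 0.73 to 1.40. The weighted limma-voom fit gave 1.05 (SE 0.16, adjusted p = 0.0179) and DESeq2 in pairs 1 and 3 gave 1.07 (adjusted p = 9.37e-05). Leaving out single libraries from the unblocked fit moved the value from 0.27, without the HPC library of pair 3, to 1.46, without the LPC library of pair 3. The blocked call in pairs 1 and 3 rests on 2 libraries of each group and 568, 1467, 251 and 817 counts.

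The paralogs of *Rab5b* had, in pairs 1 and 3, smaller differences than *Rab5b*, while in pair 2 theirs were larger. *Rab5c* was measured at 134, 98.9 and 142 CPM in HPC and 112, 77.8 and 123 CPM in LPC, higher in HPC in every pair, with overlapping groups. Its within-pair log2 differences were 0.26, 0.35 and 0.21, and its blocked log2 fold change in pairs 1 and 3 was 0.22 (SE 0.15, adjusted p = 0.607, edgeR), with a 95% interval of -0.08 to 0.53. That interval did not overlap the one for *Rab5b*, although the difference between the genes was not tested. Both intervals rest on pairs 1 and 3 and on an estimate of spread drawn mostly from other genes. *Rab5a*, the least abundant paralog, was at 14.2, 18.04 and 15.9 CPM in HPC and 13.9, 0 and 10.7 CPM in LPC. All 3 HPC values of *Rab5a* lay above all 3 LPC values, with a small margin in pair 1 and a count of 0 in the LPC library of pair 2. The fitted log2 fold change of *Rab5a* was 0.95 (SE 1.22) over all 6 libraries without the block and 1.58 (SE 1.55) with it, both above those of *Rab5b*, with an adjusted p of 0.9996 and 0.927 (edgeR). It was 0.30 in pairs 1 and 3 with the block (SE 0.33, adjusted p = 0.804, edgeR).

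The promoter windows of the 3 *Rab5* genes are shown because all 3 were higher in HPC in every pair and *Rab5b* was the 1 Rab gene called in pairs 1 and 3. They run from 250 bases before to 50 after a RefSeq start in GRCm38.p6. They lie at chr17:53478984-53479283 on the plus strand for *Rab5a*, chr10:128696219-128696518 on the minus strand for *Rab5b* and chr11:100738166-100738465 on the minus strand for *Rab5c*. The start used for the *Rab5b* window is not the outer end of the gene at 128696284. Capitals mark CACGTG, the E-box core that factors such as MITF and TFEB bind, searched with CATGTG on both strands.
Rab5a: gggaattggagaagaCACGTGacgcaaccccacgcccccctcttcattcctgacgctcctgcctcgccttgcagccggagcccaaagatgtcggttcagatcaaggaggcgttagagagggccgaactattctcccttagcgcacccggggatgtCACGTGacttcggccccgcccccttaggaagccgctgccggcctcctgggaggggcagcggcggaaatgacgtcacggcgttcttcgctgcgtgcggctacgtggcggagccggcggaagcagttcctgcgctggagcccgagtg
Rab5b: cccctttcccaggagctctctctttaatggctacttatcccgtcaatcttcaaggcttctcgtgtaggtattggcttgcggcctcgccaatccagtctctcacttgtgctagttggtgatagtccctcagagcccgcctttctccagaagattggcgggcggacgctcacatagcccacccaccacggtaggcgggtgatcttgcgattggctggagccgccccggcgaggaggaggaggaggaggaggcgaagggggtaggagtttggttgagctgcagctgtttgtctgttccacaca
Rab5c: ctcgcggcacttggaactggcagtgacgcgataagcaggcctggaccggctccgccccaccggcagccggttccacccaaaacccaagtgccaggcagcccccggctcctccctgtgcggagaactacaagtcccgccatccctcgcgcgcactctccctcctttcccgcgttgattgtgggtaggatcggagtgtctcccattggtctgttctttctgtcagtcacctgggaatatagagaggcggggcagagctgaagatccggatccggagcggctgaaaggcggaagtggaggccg
The *Rab5a* window held 2 CACGTG matches, starting 235 and 95 bases before the gene start, and the windows of *Rab5b* and *Rab5c* held neither motif. The windows had a GC content of 65.3%, 58.0% and 63.3% and 30, 15 and 23 CpG dinucleotides for *Rab5a*, *Rab5b* and *Rab5c*. CACGTG occurred in 5 of the 40 Rab genes with a window (*Rab5a*, *Rab20*, *Rab21*, *Rab23* and *Rab24*), beside 8.09% of 27025 genes and 7.15% of 32851 windows. CATGTG occurred in 4 (*Rab13*, *Rab15*, *Rab28* and *Rab34*), beside 15.9% of genes and 14.2% of windows. *Rab5b* is in neither set, so the 1 Rab gene that was called had no match to these letters in this window.

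*Rab5b* lies beside genes that were called in the same fits, a look that was chosen after its values were seen. In RefSeq it spans chr10:128677170-128696284 on the minus strand, and *Pmel*, which encodes the fibril protein of the melanosome, spans chr10:128695888-128720238 on the plus strand. The annotated genes overlap by 397 bases at their starts. *Cdk2*, a cell cycle kinase, lies inside *Pmel* at chr10:128697938-128705051 on the minus strand. *Pmel* was at 2176, 148 and 3624 CPM in HPC and 1344, 222 and 2073 CPM in LPC, higher in HPC in pairs 1 and 3 and lower in pair 2. *Cdk2* was at 265, 66.9 and 321 CPM in HPC and 160, 7.43 and 176 CPM in LPC, higher in HPC in every pair.

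In pairs 1 and 3 with the block, *Pmel* rose by 0.74 (SE 0.11, adjusted p = 0.000811, edgeR) and *Cdk2* rose by 0.79 (SE 0.13, adjusted p = 0.00229, edgeR) on the log2 scale. *Rab5b*, *Pmel* and *Cdk2* were thus called together within 1 stretch of chromosome 10. The next genes outward did not pass: *Dgka*, a diacylglycerol kinase, had 0.60 (SE 0.39, adjusted p = 0.597, edgeR), and *Suox* was below the filter, with 0 to 12 counts. Farther out, *Rps26*, a ribosomal protein gene, had -0.45 (adjusted p = 0.0927) and *Erbb3*, a receptor of the melanocyte lineage, had -0.22 (adjusted p = 0.796, edgeR). *Rab5b* also shares 648 bases at 95% identity or more with the processed pseudogene *Gm13991* on chromosome 2, which is not a row of the table. Whether counting used the strand is not given in the sources used here, so reads from the overlap of *Rab5b* and *Pmel* could not be assigned with certainty. In GENCODE vM21 no exon of *Rab5b* overlaps an exon of another gene, but the annotation used for counting is not given. The kit reads near 3′ ends, which for *Rab5b* and *Pmel* lie outside the bases they share by annotation. Where the reads fell was not examined, and whether misassigned reads contributed to these values was not tested. The 3′ end of *Pmel* overlaps the annotated span of *Dgka*, at chr10:128720131-128745084 on the minus strand.

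**Figure D3:**
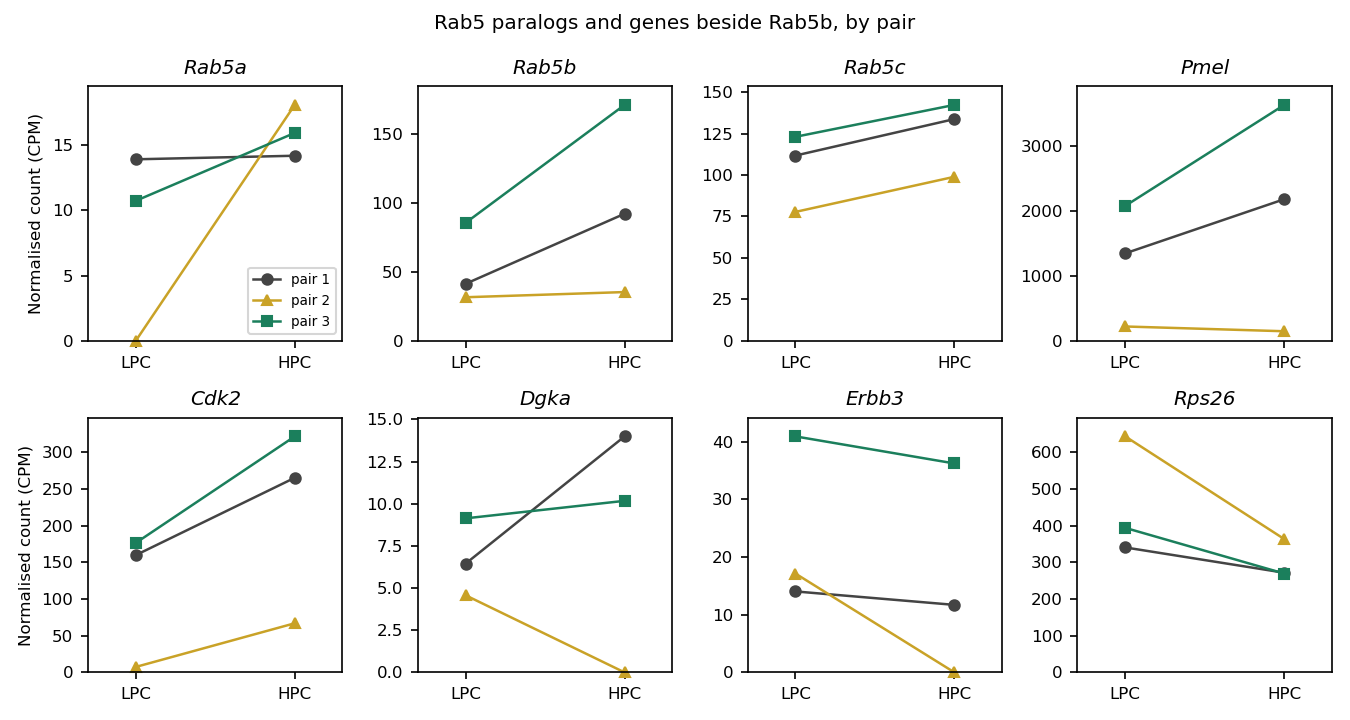
Normalised count (CPM, linear axes from 0) in LPC and HPC for the *Rab5* paralogs, *Pmel* and *Cdk2* beside *Rab5b*, and the farther neighbours *Dgka*, *Erbb3* and *Rps26*, with 1 line per pair. The lines of pairs 1 and 3 climb steeply for *Rab5b*, *Pmel* and *Cdk2*, from 41.5 to 92.4 and from 85.8 to 172 CPM for *Rab5b*, while *Rab5c* climbs little and *Rps26* descends in every pair.

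The other early endosomal Rabs showed no difference beyond the spread. *Rab31* was at 40.3, 67.5 and 46.6 CPM in HPC and 43.6, 51.2 and 47.1 CPM in LPC, nearly equal within pairs 1 and 3. *Rab21* and *Rab22a* ranged from 8.86 to 37.5 CPM and from 5.82 to 46.3 CPM over the 6 libraries, and each was higher in HPC in some pairs and lower in others. Over the 6 genes of the class the median log2 fold change was 0.25 with 5 higher and 1 lower, and 0.14 in pairs 1 and 3 with the block. Their summed level was 337, 253 and 442 CPM in HPC and 275, 180 and 330 CPM in LPC, higher in HPC in every pair, and *Rab5b* gave much of the difference in pairs 1 and 3. Their within-pair medians were 0.14, 0.37 and 0.37.

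Recycling Rabs return cargo to the cell surface. *Rab4a* and *Rab4b* act on the fast route, *Rab11a* and *Rab11b* on the slow route through the recycling endosome, *Rab35* on a fast route and in cell division, and *Rab14* between the Golgi and endosomes. *Rab11b* and *Rab17* are also known for melanosome release from pigment cells. *Rab14* was the most abundant, at 198, 300 and 264 CPM in HPC and 193, 221 and 255 CPM in LPC. The *Rab14* libraries of a pair differed by 0.04, 0.44 and 0.05 on the log2 scale, so HPC exceeded LPC by a small margin in pairs 1 and 3, and the groups overlapped. In pairs 1 and 3 with the block its log2 fold change was 0.03, with a 95% interval of -0.24 to 0.31.

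*Rab11a* was at 99.1, 73.3 and 97.0 CPM in HPC and 78.3, 52.3 and 99.5 CPM in LPC. It was higher in HPC in pairs 1 and 2 and nearly equal in pair 3. *Rab11b* was at 40.02, 11.6 and 53.1 CPM in HPC and 39.2, 42.9 and 66.4 CPM in LPC. The low value of *Rab11b* was that of the HPC library of pair 2, and its log2 fold change went from -0.49 over all 6 libraries to -0.17 (SE 0.20, adjusted p = 0.816, edgeR) in pairs 1 and 3 with the block.

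*Rab17* and *Rab35* differed between the libraries of pair 2 in opposite directions, by -2.87 and 2.96 on the log2 scale, and by at most 0.53 in pairs 1 and 3. *Rab4b* was at 5.86, 9.89 and 5.26 CPM in HPC and 4.96, 4.29 and 2.10 CPM in LPC, with no overlap between the groups, and a blocked log2 fold change of 0.76 (SE 0.59, adjusted p = 0.688, edgeR) in pairs 1 and 3. *Rab4a* ranged from 0.858 to 7.83 CPM, with the lowest values in pair 2, and *Rab15*, below the filter, reached at most 8.29 CPM. The exons of *Rab4b* share 1280 bases on the same strand with *Gm21983*, which is not a row of the table, so its count is uncertain. Over the 7 recycling genes tested the median was 0.19 with 5 higher and 2 lower, and over 8 genes in pairs 1 and 3 with the block it was 0.04. Their summed level was 382, 425 and 483 CPM in HPC and 348, 352 and 494 CPM in LPC, higher in HPC in pairs 1 and 2 only.

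Late endosomal and lysosomal Rabs showed no gene past the threshold in any fit run. *Rab7*, which drives late endosome and lysosome fusion, was at 180, 188 and 220.5 CPM in HPC and 205, 107 and 242 CPM in LPC. HPC was lower than LPC in pairs 1 and 3 and higher in pair 2, and the groups overlapped. Its log2 fold change was 0.08 over all 6 libraries and -0.17 (SE 0.13, adjusted p = 0.690, edgeR) in pairs 1 and 3 with the block, with a 95% interval of -0.45 to 0.11. *Rab7* shares sequence with 9 other genes, so reads could have been split between them. The longest stretch, 622 bases, is with *Rab7-ps1*, which is not a row of the table. The 8 genes that are rows share 100 to 131 bases.

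*Rab34*, known for lysosome positioning, was at 81.8, 102 and 114 CPM in HPC and 70.4, 139 and 108 CPM in LPC. *Rab12*, known for sorting receptors to degradation, was at 58.7, 134 and 108 CPM in HPC and 76.8, 88.3 and 106 CPM in LPC. HPC was above LPC in some pairs and below in others for both genes, and pairs 1 and 3 differed from each other more than the groups did. *Rab24*, linked to autophagy, lay between 75.2 and 101 CPM in all 6 libraries, and 1258 bases of its exons lie opposite *Prelid1*. *Rab9*, which returns receptors from late endosomes to the Golgi, had a count of 0 in both libraries of pair 2 and 5.49 to 9.92 CPM elsewhere. *Rab36*, also linked to lysosome positioning, ranged from 0 in the LPC library of pair 2 to 13.4 CPM in its HPC library, and *Rab9b*, below the filter, reached at most 1.40 CPM. The class median was 0.11 with 5 higher and 1 lower of 6 tested, and 0.01 with 3 higher and 3 lower in pairs 1 and 3 with the block.

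Secretory Rabs serve delivery to the surface and regulated exocytosis. *Rab10*, which acts on exocytic carriers such as those of the glucose transporter GLUT4, was the most abundant Rab of the set, at 208, 353 and 377 CPM in HPC and 213, 260 and 418 CPM in LPC. Pairs 1 and 3 differed more from each other than HPC from LPC, and the groups overlapped. The blocked log2 fold change of *Rab10* in pairs 1 and 3 was -0.10, with a 95% interval of -0.37 to 0.16. *Rab8a*, which acts in exocytosis and cilium formation, was at 43.6, 31.4 and 50.9 CPM in HPC and 50.9, 25.4 and 46.3 CPM in LPC. *Rab13*, linked to tight junction traffic, was at 23.6, 30.3 and 32.6 CPM in HPC and 30.7, 17.7 and 31.8 CPM in LPC. Neither *Rab8a* nor *Rab13* kept its direction over the 3 pairs.

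The exocytic Rabs of neurons and gland cells were low or uneven. *Rab3a* and *Rab3d*, which act on secretory vesicles, ranged from 7.48 to 25.0 CPM and from 3.31 to 14.0 CPM. *Rab3c* had 7, 165 and 11 counts in HPC and 10, 105 and 3 counts in LPC of pairs 1, 2 and 3, so nearly all of its counts came from pair 2, in both groups. *Rab37* had 55 counts in the LPC library of pair 2, 0 in the HPC library of that pair and 2 to 35 elsewhere. *Rab8b*, the paralog of *Rab8a*, ranged from 9.89 to 27.4 CPM, while *Rab3b* and *Rab27b* stayed below the filter at no more than 1.16 CPM. *Rab26* had 14 counts in the LPC library of pair 2 and 0 in the other 5 libraries. The class median was 0.09 with 6 higher and 2 lower of 8 tested, and -0.01 with 3 higher and 4 lower of 7 in pairs 1 and 3 with the block.

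Set side by side, the medians of the 4 routes in the unblocked fit were 0.25 for early endosomal, 0.19 for recycling, 0.11 for late endosomal and lysosomal and 0.09 for secretory Rabs. With the block and without pair 2 they were 0.14, 0.04, 0.01 and -0.01. These differences between classes were not tested. Within pairs, in the same order, the medians were 0.14, 0.23, 0.21 and -0.05 in pair 1 and 0.37, 0.48, 0.41 and 0.30 in pair 2. In pair 3 they were 0.37, -0.04, -0.04 and -0.06. The early endosomal median was thus the highest in pair 3 only, and the recycling median was the highest in pairs 1 and 2. Leaving out the HPC library of pair 3 turned the recycling median to -0.11, and leaving out the LPC library of pair 1 moved the early endosomal median to 0.54. The secretory median was -0.05 without either the HPC library of pair 2 or that of pair 3, and -0.07 without the LPC library of pair 2. The late endosomal median was 0.31 without the LPC library of pair 3 and 0.02 without the HPC library of that pair.

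Counted by agreement among pairs, 8 of the 41 Rab genes were higher in HPC in all 3 pairs, beside 12.9% of all genes (1463 of 11324). They were *Rab5a*, *Rab5b* and *Rab5c* of the early endosomal class, *Rab4a*, *Rab4b* and *Rab14* of the recycling class, *Rab2b* and *Rab40c*. None of the 6 late endosomal or 8 secretory genes tested was among them, and a share of 12.9% gives few genes in classes of that size. In pairs 1 and 3 *Rab4a* and *Rab14* were higher by at most 0.05 on the log2 scale. *Rab1* was the 1 Rab gene lower in HPC in all 3 pairs, beside 17.2% of all genes (1948). Groups did not overlap, with HPC above, in 3 Rab genes (*Rab4b*, *Rab5a* and *Rab40c*), beside 2.43% of all genes (275), and with HPC below in 0, beside 3.31% (375).

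**Figure D4:**
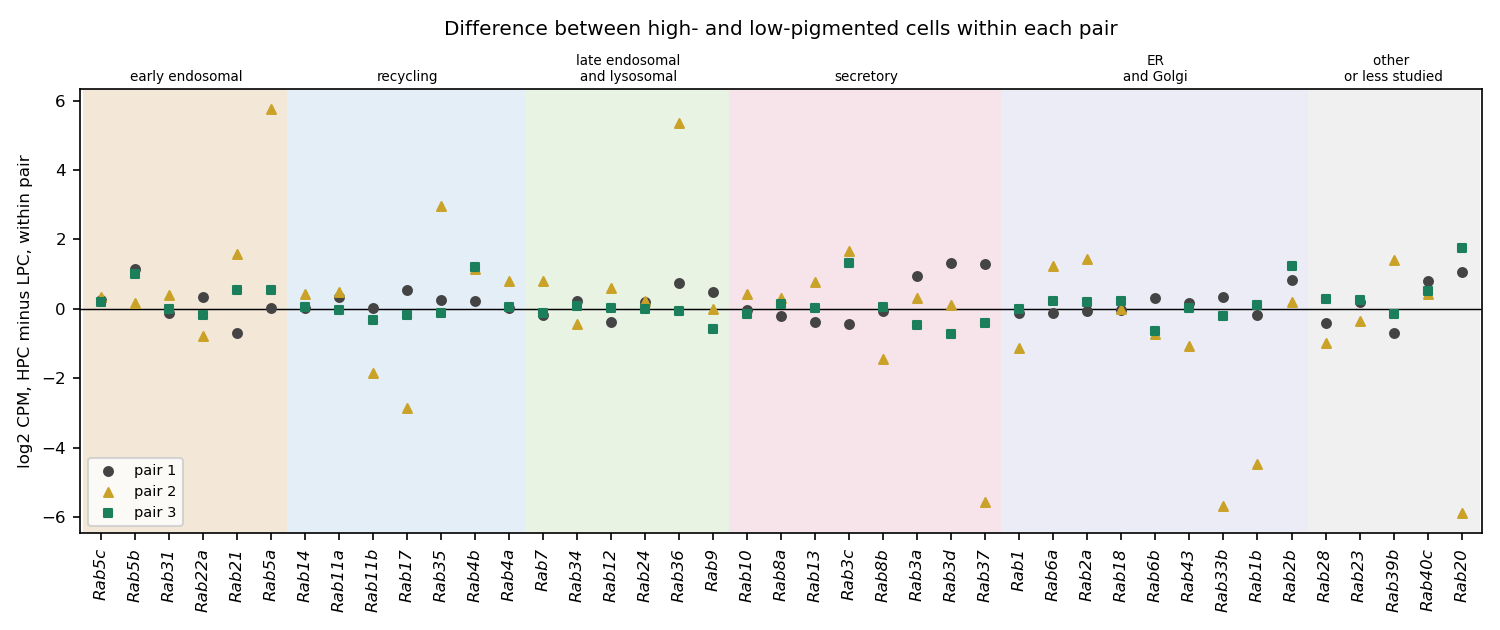
Log2 CPM difference of HPC minus LPC within each pair for the 41 Rab genes that passed the filter, by role class, with 1 symbol per pair and a line at 0. Differences in pairs 1 and 3 mostly lie within 0.5 of 0 (30 of 41 genes in each), while those of pair 2 reach beyond 5 in either direction, and the 3 symbols of *Rab5b* and *Rab5c* all lie above 0.

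Rabs of the endoplasmic reticulum and Golgi were set beside the endosomal routes. *Rab1*, which starts transport out of the endoplasmic reticulum, was at 261, 39.6 and 285 CPM in HPC and 284, 86.6 and 287 CPM in LPC. Both libraries of pair 2 lay far below the other 4, whichever the group, and within pairs 1 and 3 the values were nearly equal. Its blocked log2 fold change in pairs 1 and 3 was -0.08, with a 95% interval of -0.34 to 0.19. *Rab6a*, which acts at the Golgi, was at 163, 174 and 196 CPM in HPC and 177, 73.2 and 167 CPM in LPC. *Rab2a*, of the early secretory route, was at 154, 144 and 171 CPM in HPC and 161, 53.5 and 149 CPM in LPC. In both genes the LPC library of pair 2 was the low one, and 708 exon bases of *Rab6a* lie opposite *Mrpl48*.

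*Rab2b*, the paralog of *Rab2a*, was at 6.67, 5.24 and 12.9 CPM in HPC and 3.64, 4.57 and 5.25 CPM in LPC, higher in HPC in every pair with overlapping groups. Its blocked log2 fold change in pairs 1 and 3 was 1.09 (SE 0.46, adjusted p = 0.307, edgeR), and exons of *Tox4* lie opposite 195 of its bases. *Rab6b*, a form studied mostly in neurons, was at 25.1, 34.9 and 29.2 CPM in HPC and 20.3, 57.7 and 46.1 CPM in LPC, higher in HPC in pair 1 and lower in pairs 2 and 3. *Rab30*, a Golgi Rab, reached at most 2.48 CPM and was at 0 in 2 libraries, so its blocked value of -1.96 (SE 1.41, adjusted p = 0.649, edgeR) rests on few counts. The class median was -0.16 with 4 higher and 5 lower of 9, and 0.05 with 6 higher and 4 lower of 10 in pairs 1 and 3 with the block. Without the HPC library of pair 2 it was 0.32. *Rab18*, of lipid droplets and the endoplasmic reticulum, ranged from 49.5 to 99.0 CPM and *Rab43* from 22.6 to 52.6 CPM. The exons of *Rab43* share 4164 bases on the same strand with *Gm45140*, which is not a row of the table, so the *Rab43* count is uncertain. *Rab33b* and *Rab1b* were at 0 in the HPC library of pair 2 and reached 26.1 and 13.1 CPM in other libraries, and *Rab33a* had a count in 1 library.

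Among the remaining Rabs, *Rab40c*, whose protein belongs to a SOCS box ubiquitin ligase, was at 18.9, 15.1 and 18.6 CPM in HPC and 10.6, 11.1 and 12.9 CPM in LPC. All 3 HPC values were above all 3 LPC values, and the within-pair log2 differences were 0.82, 0.43 and 0.51. Its log2 fold change was 0.60 (SE 0.57, adjusted p = 0.9996, edgeR) over all 6 libraries and 0.66 (SE 0.31, adjusted p = 0.382, edgeR) in pairs 1 and 3 with the block, and 103 of its exon bases lie opposite *Gm16278*, which is not a row of the table. *Rab28*, known from cilia of photoreceptors, and *Rab23*, a regulator of Hedgehog signalling, ranged from 15.1 to 48.8 CPM and from 12.7 to 32.0 CPM with no constant direction over the pairs. *Rab39b*, known from neurons, was at 13.8, 26.2 and 17.7 CPM in HPC and 22.8, 9.72 and 19.7 CPM in LPC, with a blocked value of -0.44 (SE 0.28, adjusted p = 0.589, edgeR) in pairs 1 and 3.

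*Rab20*, which acts on endosomes and phagosomes, had 17, 0 and 19 counts in HPC and 7, 69 and 4 counts in LPC. Its LPC library of pair 2 held more counts than the other 5 together, so the log2 fold change was -1.97 (SE 1.66) over all 6 libraries and 1.76 (SE 1.12, adjusted p = 0.581, edgeR) in pairs 1 and 3 with the block. *Rab44*, an atypical large Rab, ranged from 0 to 4.07 CPM and was below the filter.

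For the abundant Rabs the intervals were narrow once pair 2 was left out and the pair was fitted as a block. That fit has few libraries and takes most of its estimate of spread from other genes. The intervals therefore do not give the replicate spread of each gene by itself. Apart from *Rab5b*, 15 genes had a mean of at least 40 CPM over pairs 1 and 3, and their blocked log2 fold changes lay between -0.18 (*Rab12*) and 0.22 (*Rab5c*), with SEs of 0.13 to 0.20. The 95% interval of each of the 15 lay within a change of 1.5-fold either way, the widest bounds being -0.57 for *Rab11b* and 0.53 for *Rab5c*. With all 6 libraries and no block the intervals of the same 15 genes reached from -1.87 to 1.54. The intervals differ by both choices, the libraries and the block, and for *Rab5b* the SE of 0.63 became 0.49 without pair 2 and no block, 0.28 with the block alone and 0.16 with both. The mean of pair 3 differed from that of pair 1 by more than HPC differed from LPC in 30 of 41 Rab genes (73.2%), near the 67.6% of all genes.

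Counting could also move reads between genes. Of the 49 Rab genes, 18 share at least 100 bases at 95% identity or more with a transcript of another gene, and 0 do so with another of the 49. *Rab33b* shares such stretches with 92 genes, *Rab14* with 71, *Rab34* with 43 and *Rab11b* with 17, and such counts are uncertain by an unknown amount. *Rab11b* shares 654 bases with *Rab11b-ps2* and *Rab9* shares 606 bases with *Rab9b-ps1*, both of which are rows of the table. Exons of 15 overlap an exon of another gene on the opposite strand and those of 5 overlap one on the same strand.

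The regulators and effectors of Rabs gave few differences too. Of 103 listed genes 98 had a row and 90 were tested over all 6 libraries, with 46 higher, 44 lower, a median of 0.00 and 0 called. In pairs 1 and 3 with the block, 56 of 91 were higher, 35 were lower, the median was 0.08 and 0 were called. By kind and over all 6 libraries, 3 of 7 prenylation and recycling factors were higher, as were 12 of 29 activators, 16 of 27 GTPase-activating proteins and 15 of 27 effectors. In pairs 1 and 3 with the block these counts were, in the same order, 5 of 7, 21 of 30, 12 of 26 and 18 of 28. The split by kind thus depended on the fit. At an unadjusted p under 0.05 in pairs 1 and 3, 5 were higher in HPC, among them *Appl2*, *Vps39*, *Plekhm1* and *Exoc6b*, and 4 were lower (*Appl1*, *Mon1a*, *Dennd4a* and *Dennd4b*) of the 91 tested, where 6.08% of all genes were higher and 6.06% lower by that measure. These genes were named after their values were seen.

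Of these, *Appl1* and *Appl2* encode paralogous Rab5 effectors. Neither was called. The 5 higher and 4 lower of 91 genes, from which they were picked, do not exceed the shares of 6.08% and 6.06% over all genes. Other Rab5 effectors on the list are given beside them. In pairs 1 and 3 with the block, *Eea1*, *Rabep1*, *Rabep2* and *Zfyve20* had log2 fold changes of -0.01, -0.07, 0.16 and -0.07. *Appl2* was at 106, 89.6 and 164 CPM in HPC and 79.2, 70.9 and 123 CPM in LPC, higher in HPC in every pair, with a log2 fold change of 0.40 over all 6 libraries and 0.41 (adjusted p = 0.236, edgeR) in pairs 1 and 3 with the block. *Appl1* was at 32.2, 57.6 and 42.8 CPM in HPC and 44.3, 64.6 and 55.5 CPM in LPC, lower in HPC in every pair, with -0.31 over all 6 libraries and -0.43 (adjusted p = 0.379, edgeR) in pairs 1 and 3 with the block.

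For reference, the melanosome Rab *Rab27a* was at 126, 93.1 and 151 CPM in HPC and 75.0, 33.4 and 138 CPM in LPC, higher in HPC in every pair, with a blocked log2 fold change of 0.42 (adjusted p = 0.273, edgeR) in pairs 1 and 3. *Rab38* was at 556, 117 and 470 CPM in HPC and 499, 144 and 532 CPM in LPC, with a blocked value of -0.02 (adjusted p = 0.971, edgeR). Its level in pairs 1 and 3 was above that of any Rab outside melanosome transport in the same library. *Rab32* was at 29.6, 11.6 and 21.6 CPM in HPC and 28.1, 16.6 and 24.6 CPM in LPC. Its blocked value in pairs 1 and 3 was -0.07 (adjusted p = 0.953, edgeR).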

How the data were processed

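Gene counts of 6 libraries of sorted B16-F10 cells were used as deposited. The authors made these raw counts from QuantSeq forward 3′-end libraries with STAR on GRCm38, per the submitters' processing notes, and with HTSeq, per the file headers and tally rows. Versions, annotation, counting mode and use of strand are not given in the sources used here, and tally rows were left out.

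Genes were tested with edgeR 4.0.16 in R 4.3.3 (robust glmQLFit and glmQLFTest, filterByExpr at a minimum count of 10, TMM) with the groups alone, and p-values were adjusted by Benjamini-Hochberg over all genes. SEs were taken from the test statistic, and the fits share estimates of spread across genes. Differences within pairs are of log2 CPM, at a prior count of 2. DESeq2 1.42.0 and limma 3.58.1 were alternatives. Some of the edgeR fits were also run on counts simulated from edgeR's own estimates. Such counts cannot show whether its model holds for these libraries, so no conclusion is drawn from them. Libraries sharing a title suffix deviated together from their group means (r = 0.466, 0.316 and 0.422 across 11324 genes, each above the minimum of 0.1), so the suffix was taken to pair them. The 49 Rab genes, the role classes and the list of regulators were chosen with earlier results of these data known. A regulator on that list is not reported here by name. Genes described singly were the 3 most abundant per class, those called, and the 5 with the smallest p per direction in pairs 1 and 3 with the block, 23 in all. *Rab5a*, *Rab4b*, *Rab3c* and other Rabs outside that rule that are given library by library were chosen after their values were seen. Positions and promoter windows come from RefSeq (GRCm38.p6), matched by symbol for 49 and 40 of 49 genes. Sequence shared with other genes (at least 100 bases at 95% identity) and exon overlaps were taken from GENCODE vM21 with blastn 2.17.0. Figures were drawn with matplotlib 3.10.9.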

Additional observations from a re-analysis of the deposited data

How the results depend on the processing

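Depth limits the scarce Rabs, since 3 counts equal 1.75 CPM in the HPC library of pair 2. In 3 alternatives *Rab5b* became the 1 Rab gene called: pairs 1 and 3 with the replicate block in edgeR (155 genes called in all, *Rab5b* 1.06), the same in DESeq2 (123 genes, 1 Rab, 1.07), and all 6 libraries with limma-voom sample weights and the replicate block (34 genes, 1 Rab, 1.05). The replicate block alone in edgeR changed no call, nor did RLE or upper-quartile scaling, leaving out 3 abundant rows, other filters, DESeq2, limma-voom, pairs 1 and 3 without the block, or leaving out single libraries, under all of which 0 genes were called. Over 395 values of 22 Rab genes, 325 kept direction and call, 67 changed sign and 3 passed the threshold, and 10 genes never changed sign. The cause was not tested.

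In pairs 1 and 3 with the replicate block, *Rab31*, *Rab7*, *Rab34*, *Rab12*, *Rab10*, *Rab8a*, *Rab13*, *Rab23*, *Rab39b* and *Rab20* changed sign against the unblocked fit of all 6 libraries, to -0.072, -0.17, 0.14, -0.18, -0.10, -0.049, -0.17, 0.22, -0.44 and 1.76. In the same order the values without the block were -0.071, -0.17, 0.13, -0.14, -0.12, -0.051, -0.16, 0.21, -0.44 and 1.66. DESeq2 in pairs 1 and 3 with the block gave -0.063, -0.16, 0.15, -0.17, -0.093, -0.041, -0.17, 0.23, -0.44 and 1.82. The weighted limma-voom fit with the block gave -0.041, -0.12, 0.11, -0.11, -0.073, -0.030, -0.13, 0.21, -0.37 and 1.19. The block alone in edgeR turned *Rab23* to 0.039 and *Rab20* to 0.081, and limma-voom turned *Rab23* to 0.070 and *Rab39b* to -0.12.

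Leaving out 1 library at a time gave ranges of -0.55 to 0.32 for *Rab1*, -0.12 to 0.41 for *Rab10*, -0.11 to 0.41 for *Rab12*, -0.12 to 0.25 for *Rab13*, -2.54 to 1.17 for *Rab20*, -0.30 to 0.36 for *Rab23*, -0.64 to 0.014 for *Rab28*, -0.12 to 0.26 for *Rab31*, -0.30 to 0.15 for *Rab34*, -0.16 to 0.37 for *Rab39b*, -0.19 to 0.33 for *Rab7* and -0.21 to 0.23 for *Rab8a*. Class medians ranged from 0.13 to 0.54 (early endosomal), -0.11 to 0.38 (recycling), 0.02 to 0.31 (late endosomal and lysosomal), -0.07 to 0.20 (secretory), -0.48 to 0.32 (endoplasmic reticulum and Golgi) and -0.30 to 0.36 (remaining Rabs).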
